A study of Mus musculus with 3 samples.

Results

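The 7 genes described here, Shh, Ptch1, Smo, Gli1, Gli2, Gli3 and Hhip, form the core of the Hedgehog pathway and were chosen by name. They are 7 of the 19946 genes listed in 3 single-cell RNA libraries of developing mouse retina, and all 7 were listed in each library. The libraries hold 14611 cells from 18 explants or retinas. Each cell carries a type name from the deposited cell table, given to clusters of these same cells. Cultured CD1 wild-type retinas, explanted at embryonic day 14 and kept for 6 days, received the Sstr2 agonist L-054,264. Its dose was 0, 5, 50 or 500 nM, with 2 samples at each dose, called explants below. At P0 and again at P14, retinas came from littermates of an Sstr2 deletion allele made in C57BL/6NCrl mice and outbred to CD1, with 1 wild-type (+/+), 2 heterozygous (+/-) and 2 knockout (-/-) retinas at each age. Sstr2 encodes a somatostatin receptor. The deletion is in the germline and so present in every cell, the untreated explants are the only controls for the agonist, and how many retinas or animals entered each sample was not stated. All tests below therefore measure the spread between these samples.

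In Hedgehog signalling a secreted ligand, Sonic hedgehog (Shh), binds the receptor Ptch1, which otherwise holds the membrane protein Smo inactive at the primary cilium. Active Smo changes the processing of the Gli transcription factors, of which Gli2 and Gli3 act directly downstream and Gli1 is itself a target, while Ptch1 and Hhip are targets that bind ligand and damp the response. In the developing retina, ganglion cells are a known source of Shh and progenitors a known responding population, and Ccnd1, Hes1 and Gas1 are linked to the pathway there as targets or coreceptor.

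In the GRCm38 annotation (GENCODE M21) Shh lies on chromosome 5 from 28456815 to 28467256, Ptch1 on chromosome 13 from 63508328 to 63573598 and Hhip on chromosome 8 from 79965851 to 80058006, all on the minus strand. Smo lies on chromosome 6 from 29735503 to 29761365 and Gli3 on chromosome 13 from 15463235 to 15730026, both on the plus strand. Gli1 lies on chromosome 10 from 127329882 to 127341974 and Gli2 on chromosome 1 from 118834132 to 119053619, both on the minus strand. All are protein-coding. Another annotated gene overlaps each of them, on the same strand for Ptch1 (A930032L01Rik), Smo (Gm13717) and Gli3 (Gm48343), and reads of such pairs may not have been told apart.

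Ptch1 and Hhip are shown by their promoter sequence because they are target genes that carry results below, Hhip in progenitors and Ptch1 in progenitors and Müller glia. Each window runs from 250 bases before to 50 bases after the RefSeq transcription start (GRCm38.p6), 5′ to 3′ on the gene's own strand, which is minus for both. Capitals mark the stretch closest to the GLI consensus TGGGTGGTC on either strand. The Ptch1 window is chr13:63565686-63565985 and that of Hhip is chr8:80057959-80058258.
Ptch1: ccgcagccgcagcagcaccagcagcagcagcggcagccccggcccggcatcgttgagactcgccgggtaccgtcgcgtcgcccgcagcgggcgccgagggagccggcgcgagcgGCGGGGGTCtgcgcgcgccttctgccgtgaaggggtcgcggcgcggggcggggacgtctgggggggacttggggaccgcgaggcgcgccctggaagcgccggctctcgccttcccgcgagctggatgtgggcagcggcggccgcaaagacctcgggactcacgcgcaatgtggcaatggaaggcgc
Hhip: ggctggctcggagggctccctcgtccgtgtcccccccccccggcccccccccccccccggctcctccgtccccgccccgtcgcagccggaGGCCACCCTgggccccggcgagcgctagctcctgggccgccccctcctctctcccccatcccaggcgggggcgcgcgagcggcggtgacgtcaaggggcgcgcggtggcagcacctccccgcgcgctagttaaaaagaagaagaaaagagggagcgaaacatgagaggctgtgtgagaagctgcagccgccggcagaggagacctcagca
The best stretch matched 6 of the 9 letters in Ptch1 and 7 of 9 in Hhip, where it lay on the opposite strand. The full consensus was found in 0 of the 5 members that had a window in the table and in 83 of all 32851 windows (0.253%). These windows were rich in G and C, at 76.3% for Ptch1 and 73.7% for Hhip against a median of 52.7% over all windows, and the Ptch1 window lies inside the longer GENCODE gene. A match or its absence is a description of these letters only.

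Each value below is a count of unique molecular identifiers (UMIs), one per captured transcript, summed over the cells of a type in an explant or retina and given as UMIs per 1000000 of that sum (CPM). Such 3' counts compare a gene between cells, not genes with each other. Explants held 1281682 to 4237324 UMIs each, P0 retinas 8822880 to 10793649 and P14 retinas 1266730 to 5886669. Every explant cell had between 1001 and 2499 detected genes, a range that P0 cells exceeded up to 7324 genes. Xist was detected in 98.3% to 99.3% of the cells of both 500 nM explants and 5 nM explant 1, and in 57.7% to 62.4% of cells of the other 5 explants. At P0 it was detected in 99.4% of the cells of heterozygote 1 and knockout 2 and in at most 2.90% of the other 3 retinas, and at P14 in 72.7% of heterozygote 2 and at most 4.29% elsewhere. Shares between the highest and the lowest may come from samples that mixed animals, which was not tested. Explant and retina therefore name a sample here. Sstr2 itself did not fall with the labelled genotype: in P0 neurogenic progenitors it was 112 CPM in the wild type, 189 and 248 in the heterozygotes and 294 and 375 in the knockouts, a rise of 1.57 on the log2 scale (SE 0.19, adjusted p = 0.00412, edgeR quasi-likelihood test). A 3' count can include transcript outside the deleted part, so these values do not check the genotype, and retinas are called by their labels.

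Shh was a ganglion cell transcript at P0. The wild-type retina held 33.0 CPM in retinal ganglion cells (RGCs), the heterozygotes 31.9 and 16.9, and the knockouts 15.5 and 24.6, a mean of 24.4 ± 8.15 (SD, n = 5). These rest on 11, 16, 5, 11 and 11 UMIs, and heterozygotes and knockouts overlap. Of 61 Shh UMIs in the library, 54 were in the 85 cells named RGCs, and 27 of those cells (31.8%, exact 95% interval 22.1% to 42.8%) held at least 1. Such intervals cover counting error only. Shh was found in 0 of 669 neurogenic progenitors and 0 of 1142 photoreceptors, where a count of 0 (taken as a limit of 3 cells) allows up to 0.448% and 0.263% of cells with a UMI and does not limit the cells that express the gene, and 1 of 2797 primary progenitors had a UMI. RGCs were also the deepest cells, at a median of 24853 UMIs against 8759 in primary progenitors, and after every cell was thinned to 2000 UMIs 1 of 85 RGCs kept a Shh UMI.

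Within the RGCs, Shh was found more often in cells with Pou4f2, a transcription factor of ganglion cell differentiation, than in those without. It was detected in 23 of 54 Pou4f2-positive and 4 of 31 Pou4f2-negative cells, in the same direction in 5 of 5 retinas, a difference that could not be read after thinning, when 0 of 11 and 1 of 74 cells had Shh. All 27 Shh-positive RGCs held at least 3 of 8 ganglion cell markers, as did all 58 Shh-negative ones. Amacrine cells gave 6 Shh UMIs in 1013 cells, and none of those 6 cells held 3 markers. Their pooled level was 3.07% of that in RGCs, beside 2.66% for the summed ganglion cell markers in the same amacrine cells. Whether RNA of other cells contributed was not tested.

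In the explants Shh was near the limit of detection. The library held 19 Shh UMIs, of which 6 were in the 200 cells named RGCs, 10 in 1372 amacrine cells, 2 in photoreceptors and 1 in a primary progenitor. In RGCs the level was 0 CPM in both untreated explants and in 5 nM explant 1, 10.2 in 5 nM explant 2, 24.7 and 17.6 at 50 nM, and 23.1 and 4.85 at 500 nM, each value above 0 resting on 1 or 2 UMIs. The untreated explants had 11 and 5 such cells, so no difference with dose could be detected at this depth. Of the 6 Shh-positive RGCs, 5 held at least 3 ganglion cell markers, as did 64.9% of the Shh-negative RGCs and 0 of the 10 amacrine cells. Pooled, Shh in amacrine cells was 17.5% of its level in RGCs, against 5.75% for the summed ganglion cell markers. The cells named RGCs carried fewer of their own markers than at P0, with a summed level of 2846 CPM against 8366. However, 0 of the 85 P0 RGCs, at 3335 to 7128 genes, lay within the explants' limit of 2499 genes. Shh and these markers thus could not be compared between explant and P0 RGCs of like gene number. At P14, where no cells were named RGCs, 8 Shh UMIs were found in 3298 cells, 5 of them in amacrine cells and 4 of those 5 in knockout 1. The cells named amacrine at P14 held summed horizontal cell markers at 2792 CPM, amacrine markers at 2040 and ganglion cell markers at 1145. Of their 3 Shh-positive cells 1 held at least 3 ganglion cell markers, as did 15.4% of the Shh-negative ones.

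Ptch1, the ligand receptor, was highest in primary progenitors at P0. It was 73.2 CPM in the wild-type retina, 67.3 and 82.5 in the heterozygotes, and 84.3 and 77.0 in the knockouts (76.9 ± 6.91, n = 5). Neurogenic progenitors, the cells leaving the cycle, held 41.9 ± 10.2 CPM and photoreceptors 42.6 ± 4.70. Amacrine cells and RGCs were lowest at 22.5 ± 4.87 and 21.2 ± 6.88. Primary progenitors lay above every other type in 5 of 5 retinas without overlap, whereas neurogenic progenitors and photoreceptors overlapped, as did amacrine cells and RGCs. Cells named photoreceptors also held the primary progenitor markers, Ccnd1 and Hes1 among them, at 1609 CPM (1172 to 2036 over retinas). Primary progenitors held 5674. The progenitor-gene values of photoreceptors may therefore include RNA of other cells, which was not tested. Without likely doublets (the top 5% of doublet scores), photoreceptor means fell for Ptch1 (42.6 to 36.3 CPM), Gli3 (33.4 to 21.5), Hhip (9.23 to 4.83) and Gli1 (8.95 to 6.01). Smo went from 45.9 to 42.6 and Gli2 from 4.92 to 3.62. In primary progenitors Gli3 was 88.5 and 88.8 and Ptch1 76.9 and 76.4. Cell types are clusters of these cells, so the orders of types given here carry no test.

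Smo, which transduces the signal, differed least between the progenitor classes among the 6 members other than Shh. In primary progenitors it was 84.6, 81.1, 83.2, 83.4 and 83.0 CPM in the wild type, both heterozygotes and both knockouts, the smallest SD of the 6 members other than Shh (83.1 ± 1.26). In neurogenic progenitors it was 83.4, 67.7, 61.8, 77.0 and 77.4. The ranges overlapped, but within each retina the neurogenic value was the lower one, in 5 of 5. It was 45.9 ± 2.83 in photoreceptors and 31.8 ± 2.99 in amacrine cells. In RGCs 11 UMIs gave 0 to 11.3 CPM, below every value of every other type. RGCs, the class that held Shh, thus had the least Smo, while Ptch1 was detected in them at 12.0 to 28.1 CPM.

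Gli1, the transcriptional target often used as a readout of the pathway, separated the progenitor classes most by pooled CPM. Primary progenitors held 38.6 CPM in the wild type, 26.2 and 39.7 in the heterozygotes, and 35.0 and 38.1 in the knockouts (35.5 ± 5.50). Neurogenic progenitors held 3.37, 1.93, 6.50, 11.8 and 1.98, which is 14.5% of the primary level when pooled. That compares with 27.9% for the summed primary progenitor markers and 88.2% for Smo. Those markers include the targets Ccnd1 and Hes1, so their sum is not independent of the pathway genes. No Gli1 UMI was found in 85 RGCs. Gli2 was 16.9 to 22.1 CPM in primary progenitors and 5.95 to 10.9 in neurogenic progenitors. Gli3, the main repressor of the family, was 94.6, 87.8, 91.8, 87.6 and 80.8 in primary progenitors and 36.7 to 52.8 in neurogenic progenitors. RGCs held 0 Gli3 and 1 Gli2 UMI.

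Hhip, the membrane-tethered inhibitor that binds ligand, followed Gli1. It was 38.4 CPM in the wild type, 32.9 and 30.5 in the heterozygotes and 32.6 in both knockouts in primary progenitors, and 3.95 to 9.67 in neurogenic progenitors. Pooled, the neurogenic level was 19.1% of the primary one. Hhip and Gli1 were in this respect unlike Ptch1, Gli2 and Gli3, which kept 48.2% to 55.7% of the primary level. After thinning, 6.23% of primary and 1.20% of neurogenic progenitors held Gli1, 5.94% and 0.747% Hhip, and 4.08% and 1.20% Gli2. For Ptch1 the shares were 13.5% and 8.22%, and for Gli3 16.1% and 7.77%. The classes also differed in genes per cell: 27.5% of primary and 51.3% of neurogenic progenitors had at most 2499. Its part in the contrast was not tested. By CPM, all 6 members other than Shh had their highest level in primary progenitors at P0 and in the explants. The share of all genes highest in that type was not counted.

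**Figure D1:**
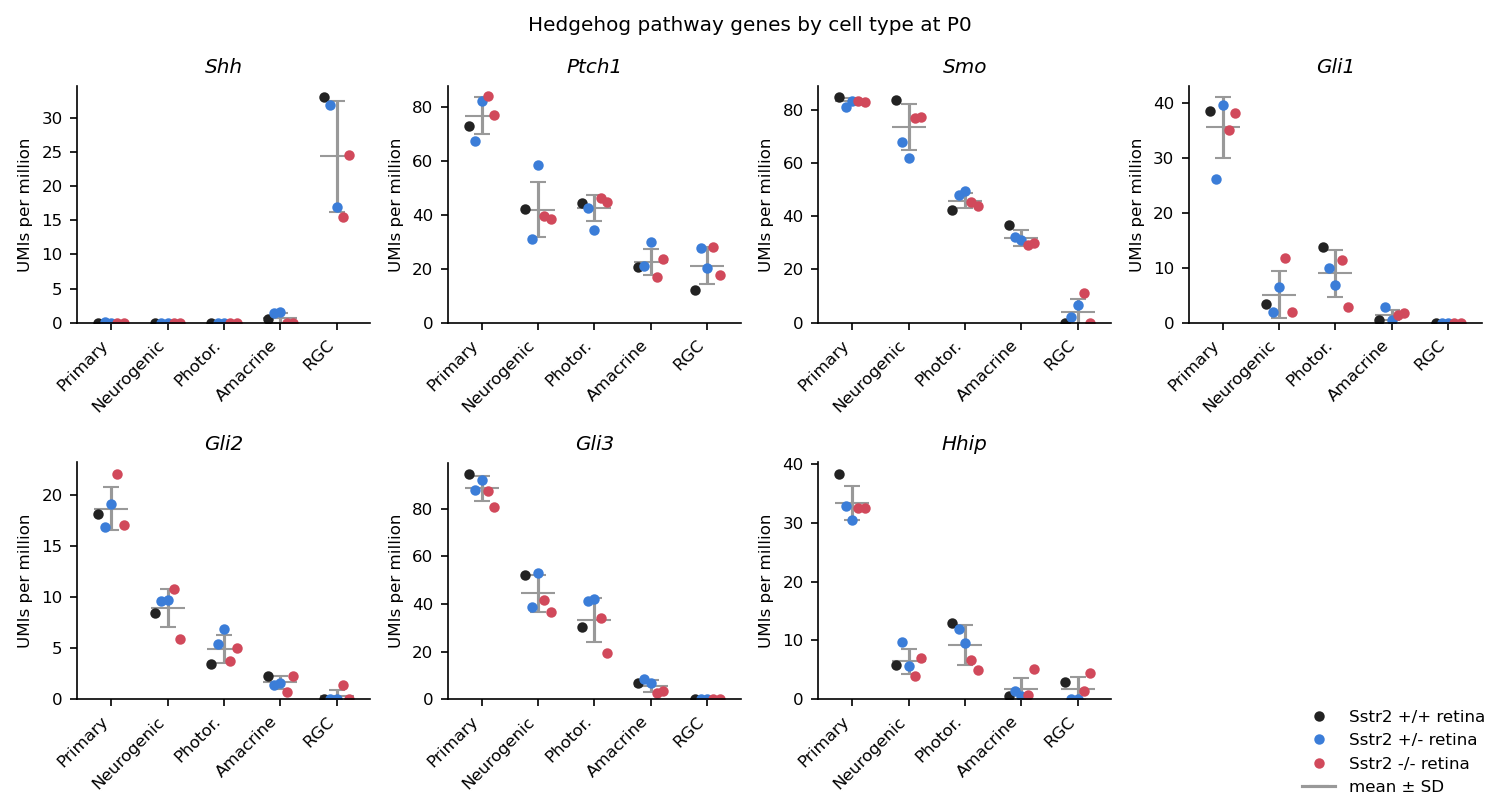
CPM of the members at P0 (y axis) by cell type (x axis), where each point is a retina: black +/+, blue +/- and red -/-, and bars are mean ± SD. Shh sits in RGCs at 15.5 to 33.0 CPM, Gli1 and Hhip stand out in primary progenitors, and RGCs have 0 UMIs of Gli1 and of Gli3.

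At P0, cells with Gli1 more often held Ptch1 and Hhip at full depth, and the shares lay closer together after thinning. Ptch1 was detected in 423 of 723 Gli1-positive primary progenitors (58.5%) and in 868 of 2074 Gli1-negative ones (41.9%), and Hhip in 32.9% and 19.9%, each in 5 of 5 retinas. After thinning to 2000 UMIs Ptch1 was found in 15.5% and 13.4% and Hhip in 5.75% and 5.95%, with 174 Gli1-positive cells left. Gli1 status was called anew from the thinned counts, so cells that lost their Gli1 UMIs counted as negative. Such cells can draw the shares together, so the thinned shares cannot decide whether depth made the difference at full depth. In the explants, where depth varied less, Ptch1 was found in 19 of 47 Gli1-positive and 18.5% of Gli1-negative primary progenitors, and in 9 of 21 and 9.25% after thinning, higher in 5 of 6 explants that had Gli1-positive cells. The other members gave mixed values. Hhip was found in 7 of 47 and 6.87%, but in 0 of 21 and 3.39% after thinning. Gli2 was found in 0 of 47 and 6.14%, Smo in 36.2% and 34.4%, and Gli3 in 17.0% and 24.6%, the last higher in 0 of 7 explants. These counts of Gli1-positive cells are small.

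The P0 primary progenitors were also divided by the number of genes per cell. Of 2797 such cells, 768 had at most 2499 genes, the upper limit seen in explant cells. Gli1 was 14.6 ± 4.48 CPM in these and 40.1 ± 7.71 in cells above, higher above in 5 of 5 retinas. Hhip was 14.1 ± 3.37 and 37.3 ± 3.78, and Ptch1 52.1 ± 12.7 and 82.0 ± 7.47, again in 5 of 5. Smo was 81.7 and 83.1 CPM, Gli2 22.4 and 17.7, and Gli3 86.1 and 89.3, with no direction held by all retinas. CPM scales each sum by its total UMIs only, and the cells on either side of the limit may differ in other ways.

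Other genes moved with this division too. Gas1, a coreceptor, was 197 and 333 CPM, Hes1 555 and 861 and the cyclin gene Ccnd1 3026 and 4054, all higher above the limit in 5 of 5 retinas. The coreceptor Cdon was 42.2 and 37.3 CPM, higher above in 2 of 5. The summed primary progenitor markers, which include Ccnd1 and Hes1 themselves, rose from 4427 to 5929 CPM. That rise is therefore not separate from the rise of these 2 genes. The neurogenic markers were lower above, at 683 against 1048, and each sum kept its direction in 5 of 5 retinas. Mitochondrial genes were likewise lower above, at 36808 against 42950 CPM. Their part in the difference of the Hedgehog targets was not tested.

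**Figure D2:**
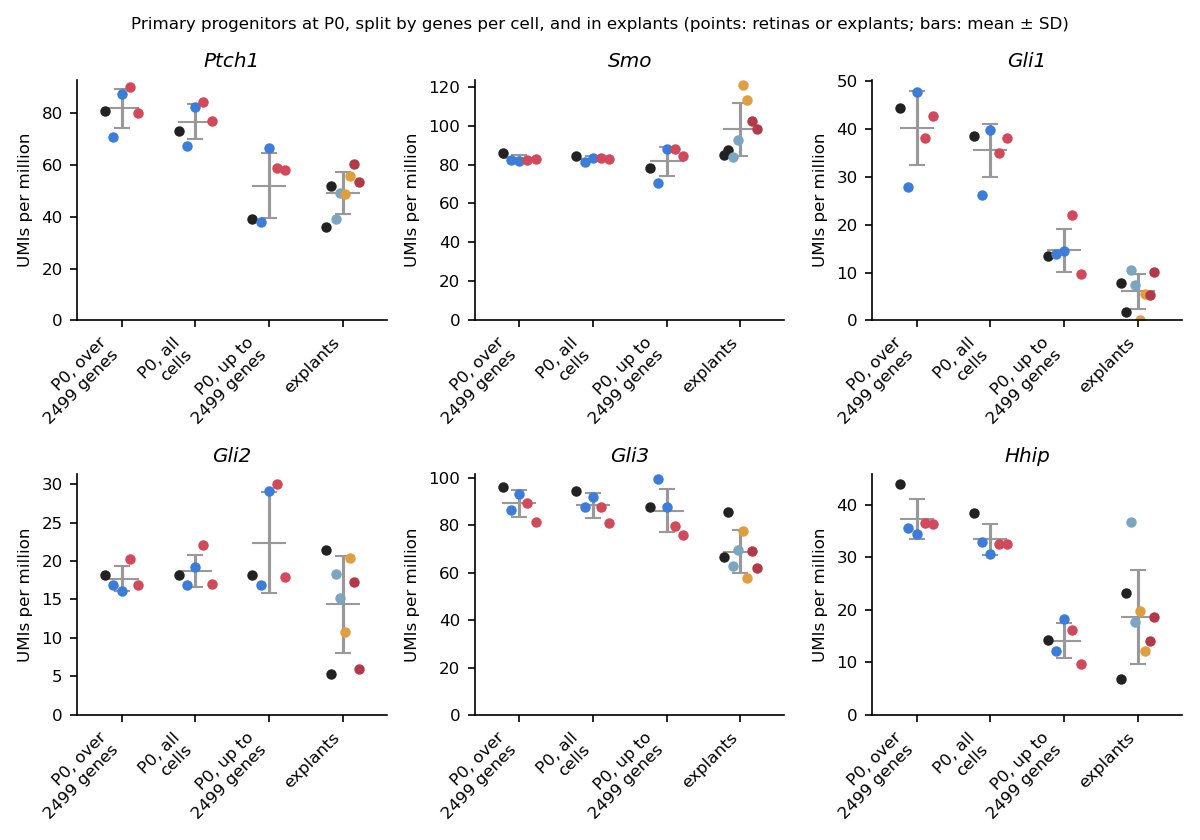
CPM of 6 members in primary progenitors (y axis) for P0 cells over 2499 genes, all P0 cells, P0 cells up to 2499 genes, and explants (x axis); points are retinas (black +/+, blue +/-, red -/-) or explants (black 0, light blue 5, orange 50, dark red 500 nM) and bars are mean ± SD. Gli1 drops from 40.1 to 14.6 CPM between the P0 cells over and up to the limit and is 0 to 10.5 in explants, whereas Smo is 83.1 and 81.7 in the P0 cells.

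Primary progenitors of the explants were then set against those of the P0 retinas, which are of similar age. Gli1 was 7.92 and 1.79 CPM in the untreated explants, 10.5 and 7.31 at 5 nM, 0 and 5.58 at 50 nM, and 5.39 and 10.0 at 500 nM. Every explant lay below the lowest P0 retina (26.2). The difference was -2.54 on the log2 scale (SE 0.21, adjusted p = 3.56e-10, edgeR, adjusted over all genes tested). This comparison was added after the data were seen.

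Hhip in the same cells was 6.78 and 23.3 CPM untreated, 36.6 and 17.7 at 5 nM, 19.8 and 12.1 at 50 nM, and 14.0 and 18.7 at 500 nM. Only 5 nM explant 1 reached the P0 range of 30.5 to 38.4, and the difference was -1.10 (SE 0.16, adjusted p = 4.98e-06). Ptch1 was 36.2 and 51.9 untreated, 39.3 and 49.4 at 5 nM, 48.7 and 55.8 at 50 nM, and 60.4 and 53.5 at 500 nM, all below the P0 retinas (-0.73, SE 0.09, adjusted p = 5.97e-07). Gli3 was 57.6 to 85.9 (-0.50, adjusted p = 1.90e-05) and Gli2 5.37 to 21.5 (-0.50, adjusted p = 0.0394). Smo, at 83.8 to 121 CPM, was the member that did not pass (0.12, SE 0.08, adjusted p = 0.187).

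So 5 of 6 tested members were lower in the explants, where 49.7% of all 9314 genes tested passed in either direction. The median change was -0.62 over the members and 0.02 over all genes. Explants and P0 retinas also differed in strain, in library and in the range of genes per cell, and culture cannot be told apart from these. The cells named primary progenitors differed in markers too. Summed neurogenic markers were 1104 CPM in explants (922 to 1270) and 744 at P0 (686 to 801). Photoreceptor precursor markers were 146 (90.5 to 209) and 42.3 (34.8 to 57.1). The part of these differences was not tested. With the P0 cells held to at most 2499 genes, 2 of 5 tested members passed, where 34.3% of genes did: Gli2 (-0.87, adjusted p = 0.0083) and Gli3 (-0.52, adjusted p = 0.000252). Hhip then stood at 0.03 (adjusted p = 0.956) and Ptch1 at -0.26 (adjusted p = 0.143). Gli1 had too few UMIs for the filter in that fit, and without the filter it remained lower (-1.35, SE 0.31, adjusted p = 0.000393). The lower Gli1 and Gli3 of the explants thus passed with either set of P0 cells, Gli1 in the second without the filter, and the lower Hhip and Ptch1 passed only with all P0 cells. The call of Gli2 on all cells was lost when likely doublets were left out (adjusted p = 0.0609) or without any of 7 single samples, with the highest adjusted p (0.153) without 500 nM explant 2.

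Of the 38 other pathway genes fixed as a list, 23 were tested in this comparison and 12 passed, 4 higher and 8 lower in the explants, a share near the 49.7% of all genes and so no result about the list. The targets Hes1 (-1.97, adjusted p = 9.83e-15) and Ccnd1 (-0.86, adjusted p = 1.34e-13) and the coreceptor Gas1 (-0.88, adjusted p = 2.41e-07) were lower, as were Grk2, Spop, Cul3, Kif3a and Bcl2. Cdon, another coreceptor, was higher (0.59, adjusted p = 5.25e-05, edgeR), as were Evc2, Btrc and Mycn, a further target on the list (0.66, adjusted p = 1.34e-05). Gas1 ranged from 134 to 205 CPM in the explants and 231 to 382 at P0, and Cdon from 49.6 to 78.5 and 32.2 to 44.7, with no overlap for either. The median over the list was -0.12. The list thus held genes of both directions, among the coreceptors and among the targets too.

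The agonist dose did not change the level of a member beyond the spread between explants. In primary progenitors Ptch1 was 0.35 higher on the log2 scale at 500 nM than in untreated explants (SE 0.22, 1.96 SE interval -0.09 to 0.79, adjusted p = 0.683), and Smo was 0.17 higher (SE 0.17, interval -0.16 to 0.49). Gli3 stood at -0.25 (interval -0.63 to 0.12), Gli2 at -0.57 (interval -1.58 to 0.45) and Hhip at 0.28 (interval -0.64 to 1.20), the last 2 with the widest intervals. The median change was 0.17 over the members and 0.01 over all genes. Both 500 nM explants lay above both untreated ones in Ptch1 and in Smo, and both lay apart from them in the share of cells with Xist, whose part was not tested. Such a separation of so few explants can arise without any effect, and how many of all genes separate in this way was not counted. Of 5 tested members 0 passed, where 0.317% of 8514 genes did, and 0 members had an unadjusted p under 0.05. DESeq2 also called 0. Shh and Gli1 had too few UMIs to enter.

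A trend over the 4 doses gave 0 of 5 members, against 0.529% of genes. Per unit of log10(dose in nM + 1), Ptch1 stood at 0.13 (SE 0.07, adjusted p = 0.590, edgeR) and Smo, highest at 50 nM, at 0.08 (SE 0.06). In neurogenic progenitors, the cells that hold most Sstr2, Smo and Gli3 could be tested and 0 passed (0.0988% of genes), at -0.13 (SE 0.27) and 0.06 (SE 0.47). DESeq2 called 0 members in both, and 0 had an unadjusted p under 0.05. Of the pathway list 0 of 22 genes passed in primary and 0 of 17 in neurogenic progenitors.

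In sums over all cells of an explant, Ptch1 was 21.9 and 33.3 CPM untreated and 34.6 and 36.0 at 500 nM, and Smo 50.5 and 57.2 against 63.2 and 68.6. These differences had unadjusted p of 0.0399 and 0.0289 but adjusted p of 0.435 and 0.402 (edgeR), so that 0 of 5 members passed (0.193% of genes), as by DESeq2. The share of all genes with an unadjusted p under 0.05 is not given here, so these 2 values do not set the members apart. Primary progenitors made up 18.1% and 25.4% of the untreated cells and 29.8% and 41.6% of those at 500 nM. Ccnd1, at 590 and 751 CPM untreated and 977 and 1129 at 500 nM, was the gene of the list that passed (0.65, SE 0.11, adjusted p = 0.0206), 1 of 28 tested. In primary progenitors alone Ccnd1 was 2230 and 2098 untreated and 2489 and 2292 at 500 nM, and did not pass. The Ccnd1 call was lost by DESeq2 (adjusted p = 0.339) and without untreated explant 1 (0.685), untreated explant 2 (0.0618) or 500 nM explant 2 (0.121).

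**Figure D3:**
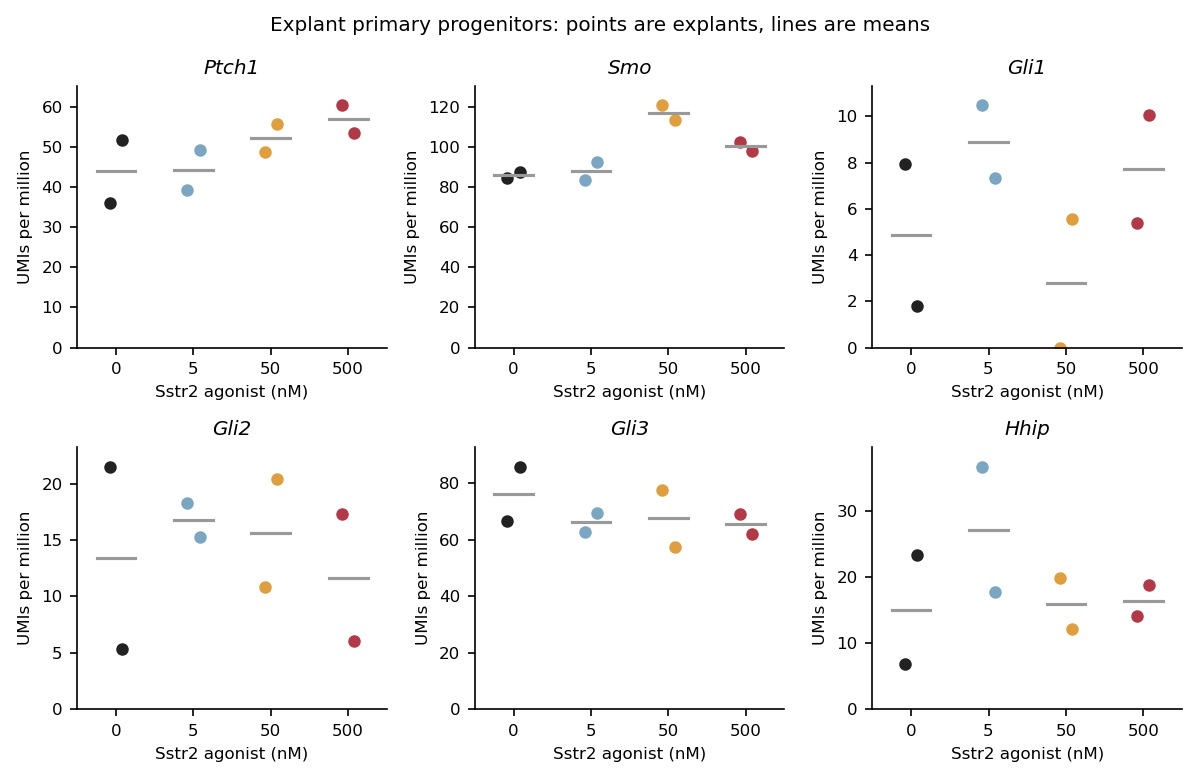
CPM of members in explant primary progenitors (y axis) at each agonist dose in nM (x axis, evenly spaced categories), where each point is an explant: black 0, light blue 5, orange 50 and dark red 500 nM. Lines are means of 2. Ptch1 spans 36.2 to 60.4 CPM and Smo 83.8 to 121. In these both 500 nM explants lie above both untreated ones, and neither difference passed its test. The other 4 members overlap.

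No member passed the test for Sstr2 genotype. Between knockout and wild type, P0 primary progenitors showed Ptch1 at 0.12 (SE 0.14, interval -0.17 to 0.40), Smo at -0.05 (interval -0.25 to 0.15), Gli1 at -0.10 (interval -0.54 to 0.34), Gli2 at 0.08 (interval -0.34 to 0.49), Gli3 at -0.19 (interval -0.40 to 0.02) and Hhip at -0.26 (interval -0.53 to 0.01). Of 6 members 0 passed, where 0.0251% of 11939 genes did, with medians of -0.07 over the members and 0.01 over all genes. Against heterozygotes 0 of 6 passed, where 0.00838% of genes did. Both knockouts lay below the other 3 retinas for Gli3, and the other 5 members overlapped between knockouts and heterozygotes. How many of all genes separate as Gli3 did was not counted. In neurogenic progenitors 0 of 6 passed (0.0334% of genes), with intervals reaching beyond 1 on either side of 0 for Gli1, Gli2 and Hhip. DESeq2 called 0 members in all 3, and 0 had an unadjusted p under 0.05. With 1 wild-type retina, its spread is taken from the other groups.

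Shh in P0 RGCs was -0.82 in knockouts against the wild type (SE 0.64, interval -2.07 to 0.43, adjusted p = 0.899), and Ptch1 in the same cells 0.93 (SE 0.80), so 0 of 2 tested members passed (0.658% of genes). DESeq2 called 0, and 0 had an unadjusted p under 0.05. Of the pathway list 0 of 32 genes passed in primary progenitors in either contrast, 0 of 22 in neurogenic progenitors and 0 of 13 in RGCs. Gas1 came nearest: it was 338 CPM in the wild type, 382 and 349 in the heterozygotes, and 246 and 231 in the knockouts. The knockouts did not overlap the others, and the difference from heterozygotes was -0.62 (SE 0.08, adjusted p = 0.336 by edgeR), with an adjusted p of 0.000243 by DESeq2, 0.0384 with no filter on low counts and 0.0143 without heterozygote 2. It also passed against the wild type without heterozygote 1 (0.0451). Other list genes that only an alternative called were Ccnd1 (0.49, adjusted p = 0.00386) and Hes1 (0.92, adjusted p = 0.00642) in P0 neurogenic progenitors and Ccnd2 in P14 Müller glia (2.15, adjusted p = 0.00132), all higher and all without knockout 2. These 4 genes are named because alternatives called them. How many of all genes hold both knockouts apart from the other retinas, as Gas1 did, was not counted.

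Neurogenic progenitors with an Sstr2 UMI were compared with those without in the same retina. Gli3 at P0 was 70.0 CPM in positive and 41.7 in negative cells of the wild type, 37.7 and 39.7 in heterozygote 1, 61.9 and 42.2 in heterozygote 2, 56.6 and 27.0 in knockout 1, and 40.0 and 30.8 in knockout 2. It was higher in 4 of 5 retinas (0.50, SE 0.20, adjusted p = 0.0754). Ptch1 was lower in 4 of 5, at 37.4 ± 8.95 and 47.7 ± 15.7 CPM (-0.42, SE 0.20, adjusted p = 0.159), and Smo 72.3 ± 14.2 and 72.8 ± 14.9 (-0.09, SE 0.16). Of 3 tested members 0 passed, where 18% of all genes did, and DESeq2 called 0. An unadjusted p under 0.05 (edgeR) was found for 2 members. At least 18% of all genes had one too, because genes past the adjusted threshold also lie under the unadjusted one, and the full share is not given here. The Gli3 value passed without likely doublets (adjusted p = 0.0491) and without heterozygote 1 (0.0362). Positive cells were deeper, at medians of 8394 to 9944 UMIs against 6144 to 6630. After thinning to 2000 UMIs, Gli3 was found in 8.33% of positive and 7.58% of negative cells. Sstr2 status was then called anew from the thinned counts, which left 168 positive cells in place of 285, so the groups changed too.

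Of 16 tested genes of the pathway list 5 passed in this comparison, where 18% of all 6043 genes tested did. Whether the list differs from all genes was not tested. Gas1 (0.62, adjusted p = 0.000924), Kif3a (0.58, adjusted p = 0.00861) and Spop (0.44, adjusted p = 0.0204) were higher in positive cells, and Ccnd1 (-0.64, adjusted p = 1.17e-11) and Gsk3b (-0.30, adjusted p = 0.00197) were lower. After thinning, with Sstr2 status called anew, Gas1 stood at 0.01, and Ccnd1 was the gene of the 5 that still passed (-1.29). Whether depth or the changed groups moved Gas1 was not tested. In explant neurogenic progenitors Smo was the only member with UMIs enough (-0.03, SE 0.21), so 0 of 1 passed against 9.36% of genes, with no unadjusted p under 0.05 and 0 by DESeq2. Ccnd1 was again lower in Sstr2-positive cells there (-0.72, SE 0.12, adjusted p = 0.000118), 1 of 6 list genes tested. Ccnd1, a G1 cyclin gene, was thus lower in the Sstr2-positive cells of both libraries.

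At P14 Ptch1 was a Müller glia transcript. It was 415 CPM in the wild-type retina, 388 and 398 in the heterozygotes, and 448 and 452 in the knockouts (420 ± 29.0, n = 5), and 215 of 266 Müller glia (80.8%) held a UMI. Bipolar cells held 49.9 ± 15.2 CPM, rods 40.6 ± 4.57, cones 32.4 ± 17.4 and amacrine cells 41.2 ± 30.0, which overlap each other but not Müller glia. Rods reached 9.75% of the pooled Müller level of Ptch1, beside 1.15% of that of the summed Müller markers, 1.20% of Smo and 3.26% of Gli3. The rod values of Smo and Gli3 rest on 4 and 7 UMIs. Whether RNA of Müller glia contributed to Ptch1 in rods was not tested. After thinning, 50.0% of Müller glia and 7.70% of rods kept a Ptch1 UMI. Heterozygote 2 had 14 Müller glia, the fewest. The cells named Müller glia held summed Müller markers at 22594 CPM, and also astrocyte markers at 914 and endothelial markers at 891. Aqp4 is on both the Müller and the astrocyte list. Whether other cells were among those named Müller glia was not tested.

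The other members did not accompany Ptch1 evenly. Smo in Müller glia was 39.5, 42.0, 40.5, 40.7 and 43.4 CPM, Gli3 28.6, 25.2, 40.5, 21.6 and 25.03, and Gli2 6.96, 11.2, 6.75, 5.09 and 6.67, each above every other type without overlap. Gli1 was found in 0 of 266 Müller glia, where a limit of 3 counts allows up to 1.13% of cells with a UMI and a pooled level of up to 0.847 CPM (exact 95% upper limits 1.38% and 1.04 CPM), and the whole library held 3 Gli1 UMIs. Hhip also had 3 UMIs, 1 of them in Müller glia. The glia thus held the receptor, Smo and both primary Gli factors, with Gli1 and Hhip near or at 0. Against P0 primary progenitors, Ptch1 was 420 and 76.9 CPM, Smo 41.2 and 83.1 and Gli3 28.2 and 88.5, values from separate libraries set side by side with no test.

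Among the list, 7 of the 24 genes with at least 100 UMIs at P14 were highest in Müller glia, 7 in rods, 5 in amacrine cells, 4 in bipolar cells and 1 in cones. Those of Müller glia included the coreceptors Gas1 (509 ± 114 CPM) and Cdon (174 ± 27.7) and Hes1 (2228 ± 331). Dhh, another Hedgehog ligand, was highest in rods (10.8 ± 0.83 CPM, 89 UMIs, against 1.48 ± 1.74 in Müller glia), where Shh had 1 UMI. The knockouts did not differ from heterozygotes in Müller glia beyond the spread: Ptch1 stood at 0.18 (SE 0.19, interval -0.19 to 0.55, adjusted p = 1), Smo at -0.02 (SE 0.35) and Gli3 at -0.34 (SE 0.45), so 0 of 3 passed (0.102% of genes), with 0 unadjusted p under 0.05 and 0 by DESeq2. Of the list 0 of 20 passed. In the explants 8 of 24 such list genes were highest in photoreceptors, 6 in primary progenitors, 5 in RGCs, 4 in amacrine cells and 1 in neurogenic progenitors. At P0, of 33 such genes, 11 were highest in primary progenitors, 8 in photoreceptors, 7 in RGCs, 5 in amacrine cells and 2 in neurogenic progenitors. The share of all genes highest in each type was not counted, so these counts are no result about the list.

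**Figure D4:**
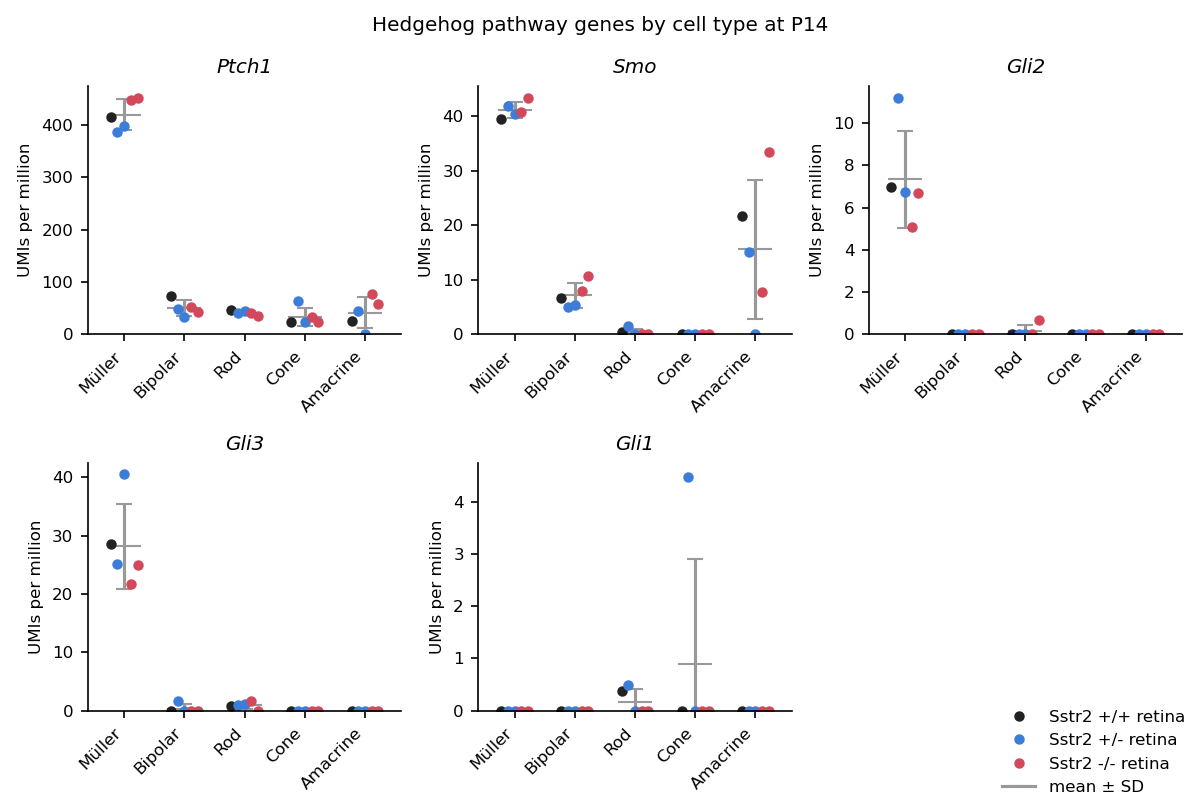
CPM of Ptch1, Smo, Gli2, Gli3 and Gli1 at P14 (y axis) by cell type (x axis), where each point is a retina: black +/+, blue +/- and red -/-, and bars are mean ± SD. Ptch1 sits at 388 to 452 CPM in Müller glia and at most 77.5 in any other type, and Gli1 is at 0 in Müller glia.

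The genes whose pattern was most like a member were found by the Pearson correlation of log2(CPM + 1) over the 21 sums per retina and cell type at P0, which share a library and fall into few types. They were Acsl3 (0.95), Aldh1a3 and Spon1 for Ptch1, A430005L14Rik (0.98), Tmpo and Myl12a for Smo, and Tagln2 (0.94), Myh14 and S1pr3 for Gli1. For Gli2 they were Fam83d (0.97), Dut and Hnrnpf, for Gli3 Sox8 (0.98), Pcgf5 and Spc24, and for Hhip Gcsh (0.95), Sat1 and Col9a1. Gli1 correlated with Hhip at 0.89 and with Smo at 0.72. Over 35 sums in the explants the nearest gene was Dennd1a (0.83) for Ptch1, Grb10 (0.92) for Smo, Pdpn (0.80) for Gli2, Myb (0.90) for Gli3 and Cyp26a1 (0.89) for Hhip. Over 19 sums at P14 it was Irf2bp2 (0.96) for Ptch1, Ttyh3 (0.98) for Smo and Gm2115 (0.98) for Gli3.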

How the data were processed

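Single cells of 8 explants, 5 P0 and 5 P14 retinas were captured as 3 libraries (10x Chromium 3' v3 with MULTI-seq sample barcodes). Per the submitters' processing notes, the authors used Cell Ranger 3.1.0 with the mm10 build and Seurat 3. Per the paper's methods, samples were separated with deMULTIplex and cells clustered after SCT normalization. The authors deposited unnormalized counts of UMIs for each cell, SCT-corrected log values (natural log), and a table of cells with their sample and cell type. Filters on cells and the strand setting were not given in the sources used here. Cells named Progenitors are called primary progenitors. SCT values were natural logs of whole numbers for 100% of entries (within 1e-6) and served as an alternative for levels only. The libraries shared 9, 4 and 7 cell barcodes.

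Raw counts were summed per explant or retina and cell type and tested with edgeR 4.0.16 (quasi-likelihood, TMM, its filter on low counts, Benjamini-Hochberg over all genes, threshold 0.05); DESeq2 1.42.0 was an alternative. Sums for Sstr2 status had the retina or explant as a block. On data simulated with 200 genes changed 4-fold, 66.5% to 100% were recovered. This gives no measure of recovery for smaller changes, such as those estimated for the members by dose or genotype. Shares of cells were also taken after thinning cells to 2000 UMIs. Where cells were divided by a gene, such as Sstr2 or Gli1, the division was made anew from the thinned counts. Scrublet marked 91, 6 and 2 cells of the explant, P0 and P14 libraries, which at P0 and P14 is too few to have worked, so that no cell was removed; an alternative left out the top 5% of scores. The 7 members, the 38 list genes and the marker lists were chosen with earlier results of these data known. Ccnd1 and Hes1 stand both among the 38 list genes and among the primary progenitor markers. Named genes are the members, list genes past the threshold, the 3 genes most correlated with each member that has 100 UMIs or more in a library, Sstr2, and markers that check a label; of the explant and P14 lists of 3 the nearest is printed. Sst at P0 and Ihh at P14 were not analysed here. Promoters come from RefSeq (GRCm38.p6); 5 of 7 members matched.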

Additional observations from a re-analysis of the deposited data

Results flagged for a closer look

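The difference between knockout and heterozygous retinas went opposite ways in different cell types for a pair of members, with both retinas of each group on the same side. At P14, Ptch1 in knockouts minus heterozygotes was 57.2 CPM in Müller glia, where both knockouts lay above both heterozygotes, and -4.83 CPM in rods, where both lay below. At P0, the same difference for Smo was 12.5 CPM in neurogenic progenitors, -2.13 CPM in amacrine cells and -3.95 CPM in photoreceptors. The wild-type retina held the most Smo in neurogenic progenitors (83.4 CPM), above both knockouts, and the least in photoreceptors (42.5), below them. In amacrine cells it held the most (36.7). Its Ptch1 at P14 lay between heterozygotes and knockouts in Müller glia (415) and was the highest in rods (46.1). Whether the differences between knockouts and heterozygotes differ between cell types was not tested. None of the tested genotype contrasts passed its threshold for Ptch1 or Smo. Gli3 also lay lower in both knockouts in P0 primary progenitors, P0 photoreceptors and P14 Müller glia, as did Hhip in P0 photoreceptors. Ptch1 in P0 photoreceptors lay higher, and the other pairs of member and cell type compared overlapped. With 2 retinas in each group such a separation can arise without any effect. How many of all genes separate in this way was not counted.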

How the results depend on the processing

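The number of members highest in primary progenitors (6 in the explants and at P0) or in Müller glia (4 at P14) was within 1 of these in every alternative. At P0 it was 5 after thinning, where Smo was found in 14.8% of primary and 15.4% of neurogenic progenitors, and at P14 it was 3 with SCT values, without Gli2, and 5 by shares of cells at full depth and without knockout 1. Of 138 counts of members past the threshold, 133 were within 1.5 times the count reported and 5 were not. In explants against P0 retinas 8 of the 133 fell from 5 to 4, with the loss of Gli2 without likely doublets or without any of 7 single samples. In P0 neurogenic progenitors by Sstr2 status the count went from 0 to 1 (Gli3) without likely doublets and ranged from 0 to 1 when a retina was left out, with 1 without heterozygote 1. In explants against P0 retinas it went from 5 to 2 with P0 cells held to the explants' gene range, to 3 with no filter in addition, and to 3 for untreated explants against wild-type and heterozygous retinas. These 3 settings were added after the data were seen, and the cause was not tested. Of 766 changes of single genes, 13 reversed, all of members that had not passed, except Hhip in explants against P0 (0.0264 with the gene range held, 0.0200 with no filter in addition). With single samples left out, the change at 500 nM in primary progenitors ranged from -1.38 to 0.89 for Gli2 (0.89 without untreated explant 1, 0.17 without 500 nM explant 2) and from -0.54 (without untreated explant 1) to 1.24 for Hhip. Over all cells it ranged from -0.169 (without 500 nM explant 1) to 1.36 for Gli2 and from -0.0797 (without untreated explant 1) to 1.62 for Hhip, and the dose trend of Gli2 ranged from -0.346 to 0.0655 (without 500 nM explant 2). In P0 knockouts against heterozygotes the ranges were -0.0396 to 0.252 for Ptch1 and -0.123 to 0.477 for Gli1, both lowest without heterozygote 1, and -0.0954 (without knockout 1) to 0.299 for Gli2. Smo went to 0.12 in neurogenic progenitors against wild type and heterozygotes together, and to -0.0562 for untreated explants against wild-type and heterozygous retinas. Where a group is left with 1 sample, it is assumed to vary like the others.

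Counts over all genes were less stable. For 500 nM primary progenitors 27 genes became 1 by DESeq2, 67 without the filter and 6 to 241 without single explants; for all cells 22 became 2, 288 and 0 to 322; for the dose trend 45 became 5, 88 and 6 to 109; for neurogenic progenitors 6 became 0 by DESeq2. For P0 knockouts against wild type 3 genes in primary progenitors became 6 by DESeq2 and up to 26 without a retina, 3 in neurogenic progenitors up to 39, and 46 in RGCs became 4 by DESeq2. Against heterozygotes 1 became 2 by DESeq2 and up to 29, and 9 in P14 Müller glia became 1 by DESeq2 and 2 to 48. By Sstr2 status 1087 genes at P0 became 518 by DESeq2 and 230 after thinning, and 246 in explants became 124 and 64. For explants against P0 retinas 4625 became 2726 and 2322 in the settings added. No paired analysis was possible between doses or genotypes because the deposited cell table gives barcode numbers that no groups share; without the block of retina or explant, the Sstr2 status comparisons called 923 genes at P0 and 232 in explants, and 0 members.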
